A study of Mus musculus with 4 samples.

Results

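The 9 chemokine and receptor genes through which T cells are drawn into inflamed tissue were followed in the cells that carried RNA of the chemokines and of the receptors. They were Ccl3, Ccl4, Ccl5, Cxcl9, Cxcl10, Cxcl16, Ccr1, Cxcr3 and Cxcr6, chosen by symbol from the 32285 genes of the feature tables, and all 9 were present there. Chemokines are small secreted proteins, and a cell moves toward one when its receptor, a protein that spans the membrane, binds it. CCL3 and CCL5 bind CCR1 on myeloid cells, and CXCL9 and CXCL10 are made in answer to interferon and bind CXCR3 on activated T cells and NK cells. CXCL16 is made as a membrane protein that can be shed, and its receptor CXCR6 marks resident and effector T cells.

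Ascites, the fluid that collects in the abdomen as ovarian tumors spread there, was profiled as single cells with the 10x Genomics 3' assay. The fluid came from female FVB mice 6 weeks after injection of Br-Luc, a mouse ovarian cancer line that lacks p53 and Brca1 and carries Myc and an activated Akt. Mice in all 4 libraries carried these tumors and received siRNA in jetPEI nanoparticles, LNA-modified in both groups per the study's methods. It was a control siRNA in 2 libraries (siCont) and an siRNA against Fxr1 in 2 libraries (siFXR1-LNA). The study's methods state that ascites of several mice was pooled for a sample, and the labels that red cells were lysed. A pooled sample hides the spread between mice, so p-values here measure only the spread between libraries. The 2 siCont libraries held 101500063 and 88346685 UMIs, molecules counted once each, and the 2 siFXR1-LNA libraries held 113606837 and 78179267. After filtering on genes and mitochondrial UMIs, 36311, 25115, 54344 and 16874 cells were kept in the same order, which is the order used for every group of 4 values in the text.

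Fxr1, the gene the siRNA was designed against, was not lower in the libraries labelled siFXR1-LNA. In macrophages its level was 65.7 and 60.9 counts scaled to equal library totals (CPM) in siCont and 73.5 and 68.9 in siFXR1-LNA. T cells held 67.5 and 51.3 against 115 and 79.9 CPM, and the epithelial cells held 113 and 135 against 144 and 139 CPM. Every siFXR1-LNA value was thus above every siCont value in these 3 cell types, and the edgeR quasi-likelihood test with Benjamini-Hochberg adjustment gave adjusted p = 0.0851, 0.534 and 0.667. The data therefore do not check the labels, and each direction given for the 9 genes is that of libraries labelled siFXR1-LNA against libraries labelled siCont.

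Cells were clustered without the 9 genes and the other chemokine and receptor genes, and clusters were named from marker lists as macrophage-like, granulocyte-like, dendritic cell-like, mature dendritic cell-like, T cell-like, NK cell-like, B cell-like, epithelial cell-like, mast cell-like and erythrocyte-like, written without the ending from here on. Macrophages numbered 4357, 2129, 3925 and 3662 cells and raised 9 of 9 macrophage markers in their larger cluster. T cells numbered 2380, 2233, 1014 and 1206, dendritic cells 1248, 634, 276 and 324, and mature dendritic cells 389, 162, 68 and 89. The last were named in part by Ccr7 and Ccl22, so levels of those 2 genes in them are no finding. The epithelial cells raised 3 of 5 epithelial and 4 of 5 mesothelial markers. The libraries stood apart in their makeup. Granulocytes numbered 12 and 49 in siCont against 5023 and 4390 in siFXR1-LNA, with a mixed subcluster set apart. They numbered 436 and 902 against 5053 and 4650 with the listed genes kept for clustering, and 437 and 897 against 5020 and 4622 at resolution 0.3. Erythrocytes numbered 22151 and 15963 against 28 and 64. A cluster led by Dcn, Ndrg1 and Timp3, which no marker list named, held 52 and 53 siCont cells against 41041 and 5454 siFXR1-LNA cells. Hemoglobin genes took 30.5% and 43.0% of UMIs in siCont and 10.2% in both siFXR1-LNA libraries. Between 598 and 2882 cell barcodes were shared by any pair of libraries.

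The cells that held the UMIs of the ligands differed between the groups, and a UMI in a cell does not show that the cell made it. Macrophages held 71.5% (95% exact binomial interval 67.7 to 75.0) and 74.5% (70.9 to 77.8) of all Ccl3 UMIs in the siCont libraries. In the siFXR1-LNA libraries they held 25.5% (24.5 to 26.4) and 24.0% (23.2 to 24.8), while granulocytes held 54.9% (53.8 to 56.0) and 68.0% (67.2 to 68.9). No Ccl3 UMI was counted in the 12 and 49 siCont granulocytes, which allows a share of up to 0.614% and 0.583%. The 428 and 853 siCont cells of the mixed subcluster set apart from the granulocytes held 21 and 30 of the 599 and 631 Ccl3 UMIs of their libraries. Mature dendritic cells held the largest share of Ccl5 of any cell type in siCont, 56.8% (56.3 to 57.4) and 46.1% (45.5 to 46.8), with T cells second at 23.5% (23.0 to 23.9) and 36.5% (35.9 to 37.1). Macrophages gave 3.57% (3.36 to 3.79) and 2.64% (2.44 to 2.86) of Ccl5 UMIs in siCont but 47.3% (46.6 to 47.9) and 52.8% (52.2 to 53.4) in siFXR1-LNA. The groups did not overlap in these 3 macrophage and granulocyte shares. With 2 libraries against 2, an exact two-sided permutation test over libraries gave p = 0.333 for each, the smallest value it can give. These shares follow the number of cells of each type as well as the level in each cell, and the intervals cover counting error only. The 41041 and 5454 siFXR1-LNA cells led by Dcn, Ndrg1 and Timp3 also held part of the Ccl3 and Ccl5 UMIs of their libraries.

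**Figure D1:**
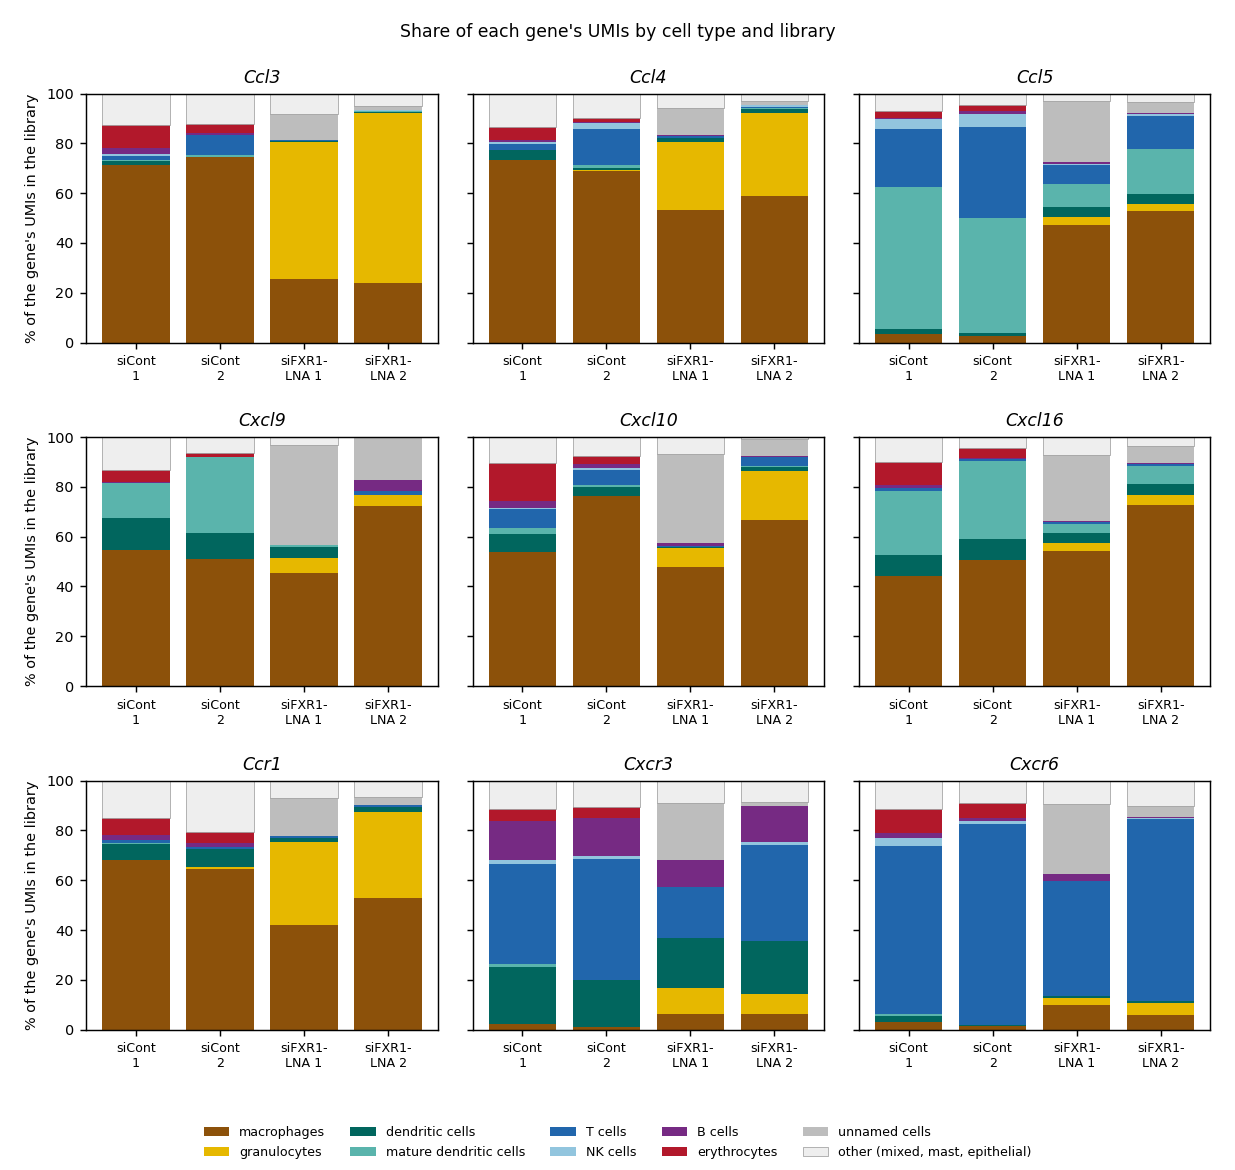
Share (%) of all UMIs of each of the 9 genes in a library that lay in each cell type, as stacked bars for the 4 libraries. Ccl3 passed from 71.5% and 74.5% macrophages in siCont to 54.9% and 68.0% granulocytes in siFXR1-LNA, and the macrophage part of Ccl5 from 3.57% and 2.64% to 47.3% and 52.8%.

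Macrophages held 53.8% (50.6 to 57.1) and 76.4% (73.5 to 79.2) of Cxcl10 UMIs in siCont and 47.8% (42.1 to 53.5) and 66.6% (61.1 to 71.7) in siFXR1-LNA, and these ranges overlapped. Of Cxcl16 UMIs, macrophages held 44.1% (42.6 to 45.5), 50.6% (48.9 to 52.4), 54.3% (52.8 to 55.9) and 72.7% (71.5 to 74.0) in the order of the libraries. Mature dendritic cells, few as they were, added 25.9% (24.6 to 27.2) and 31.2% (29.6 to 32.9) of Cxcl16 in siCont and 3.76% (3.18 to 4.402) and 6.98% (6.27 to 7.74) in siFXR1-LNA. On the receiving side, T cells held 67.5% (65.0 to 69.9), 80.7% (78.2 to 82.97), 46.4% (39.2 to 53.7) and 73.1% (70.8 to 75.3) of Cxcr6 UMIs. Cxcr3 was spread more widely, with 40.3% (37.7 to 43.0), 48.6% (45.9 to 51.2), 20.6% (14.0 to 28.6) and 38.7% (33.8 to 43.7) in T cells. Dendritic cells held 22.8%, 18.9%, 19.8% and 21.4% of Cxcr3 UMIs and B cells 15.7%, 15.5%, 10.7% and 14.2%.

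Levels were also compared per cell type, as CPM of the UMIs of that type. Ccl5 in mature dendritic cells was at 8811 and 9283 CPM in siCont and 6268 and 7226 CPM in siFXR1-LNA. NK cells were at 3592, 5320, 9897 and 6278 CPM, from only 100, 54, 5 and 10 cells, and their range overlapped that of the mature dendritic cells. T cells came next at 1322, 1369, 814 and 1159 CPM, below every value of those 2 types. Cxcl16 was also highest in mature dendritic cells, at 612, 825, 436 and 506 CPM, each value above every value of any other type. Ccr1, a receptor for CCL3 and CCL5 on myeloid cells, reached 132, 184, 89.4 and 126 CPM in macrophages and 22.8, 216, 162 and 259 CPM in granulocytes, 2 ranges that overlapped. Cxcr6 was at 193, 136, 43.2 and 366 CPM in T cells and at 147, 55.9, 0 and 106 CPM in the few NK cells, ranges that overlapped.

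**Figure D2:**
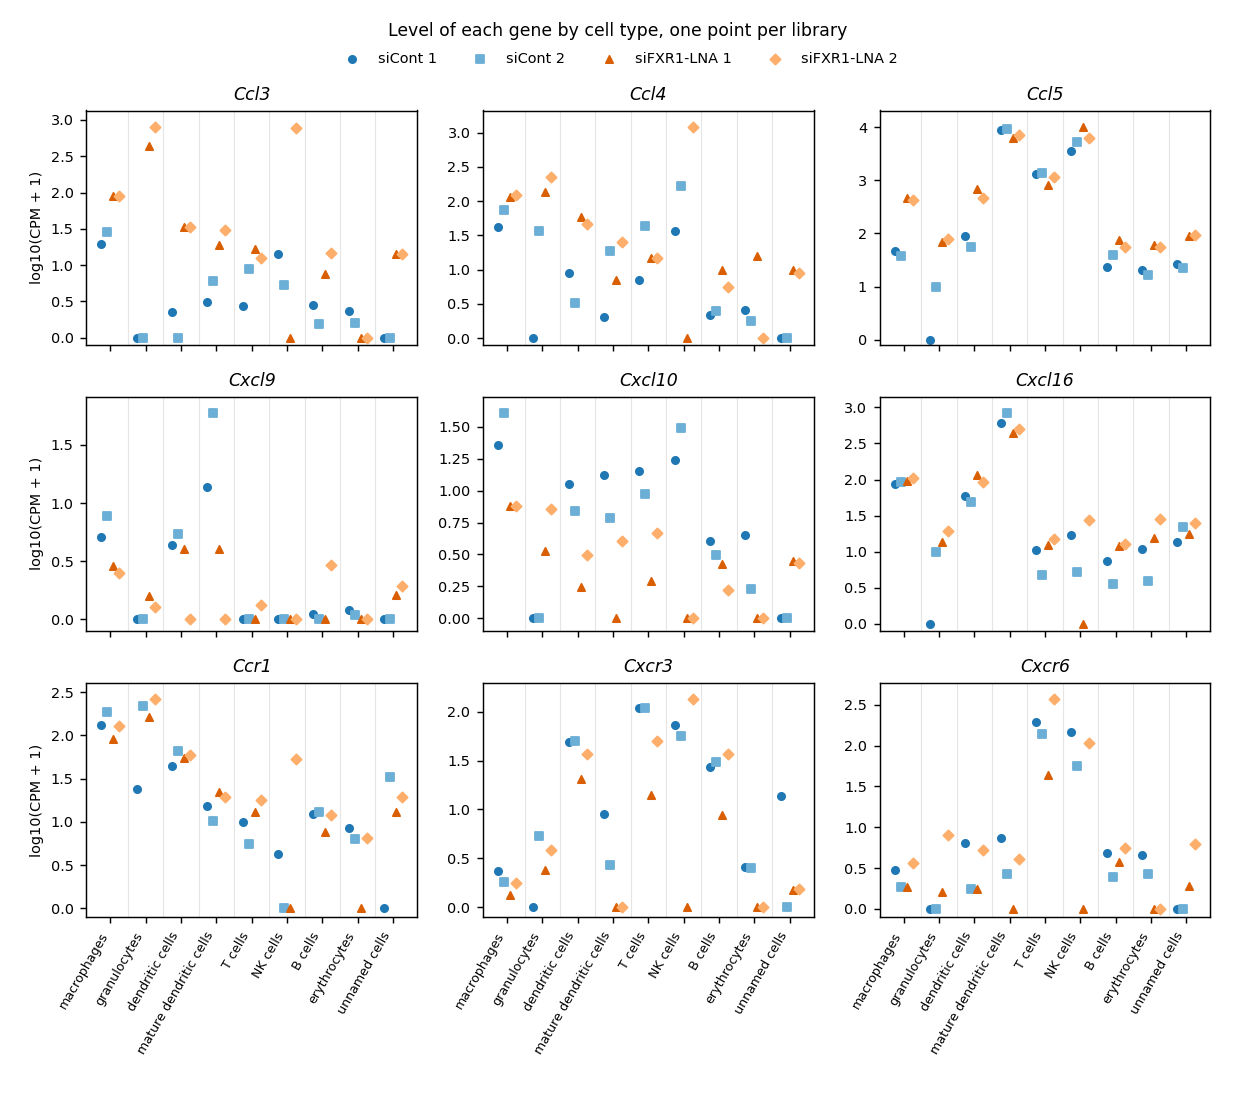
Level of each of the 9 genes as log10(CPM + 1) in 9 groups of cells, one point per library, with siCont in blue and siFXR1-LNA in orange. The mature dendritic cells stand above all other named types for Cxcl16 in all 4 libraries, and macrophages separate by group for Ccl3 and Ccl5.

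RNA free in the fluid can give UMIs in cells that do not make a gene, and erythrocytes, which should not make these genes, were read for it. Ccl5 reached 19.1 and 15.7 CPM in siCont erythrocytes, and 58.8 and 54.7 CPM in the 28 and 64 siFXR1-LNA erythrocytes, from only 4 and 10 UMIs. The cells led by Dcn, Ndrg1 and Timp3 carried 89.1 and 92.6 CPM of Ccl5 and 13.2 and 13.4 CPM of Ccl3 in the siFXR1-LNA libraries. No marker list named these cells, and whether they make Ccl5 or Ccl3 themselves was not tested, so their values are given only for comparison. For Cxcr3 and Cxcr6 the same cells held 0.489 and 0.541 CPM and 0.896 and 5.26 CPM, far under the T cells.

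In macrophages, the cells that engulf debris and steer inflammation, Ccl3, Ccl4 and Ccl5 were higher in the libraries labelled siFXR1-LNA and Cxcl10 was lower. Of the 9 genes, 3 rose and 1 fell past an adjusted p of 0.05 (edgeR quasi-likelihood test on UMI counts summed per library, Benjamini-Hochberg over all genes). The background was 2708 of 14281 genes called, or 19%, with 9.35% of genes called higher and 9.61% called lower. Of the 9, 4 were higher and 4 lower in both siFXR1-LNA libraries, where 23.2% and 46.6% of all genes were. The median log2 change was 0.34 over the 9 genes and 0.01 over all genes. Scaling matters in these sums: the TMM scaling of edgeR put the median log2 change in macrophages 0.19 above that of plain CPM ratios, so folds here exceed the ratios of the CPM values given.

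Ccl5, which draws T cells, monocytes and eosinophils, stood at 45.5 and 36.6 CPM in siCont macrophages and 465 and 427 CPM in siFXR1-LNA macrophages. Both siFXR1-LNA values lay far above both siCont values and above the 89.1 and 92.6 CPM of the Dcn-led cells. Ccl5 rose 12.4-fold, a log2 change of 3.63 (SE 0.18, adjusted p = 0.0034, edgeR). Ccl3, also known as MIP-1 alpha, stood at 18.6 and 27.3 against 88.6 and 88.0 CPM. The groups did not overlap, and Ccl3 rose 4.38-fold, a log2 change of 2.13 (SE 0.22, adjusted p = 0.0081, edgeR). Both calls were past the threshold with any 1 of the 4 libraries left out, with log2 changes of 3.52 to 3.76 for Ccl5 and 1.85 to 2.47 for Ccl3.

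Ccl4, or MIP-1 beta, a chemokine whose gene lies next to Ccl3 on chromosome 11, was at 41.3 and 72.6 CPM in siCont macrophages and at 116 and 123 CPM in siFXR1-LNA. Its rise was the smallest of the 3, a log2 change of 1.25 (SE 0.30, adjusted p = 0.0453, edgeR), and it missed the threshold without siFXR1-LNA replicate 1 (adjusted p = 0.154) or replicate 2 (adjusted p = 0.143). Cxcl16 was at 85.6, 91.9, 93.1 and 105 CPM. The siFXR1-LNA libraries were above the siCont libraries by little, and its log2 change of 0.34 (SE 0.13) gave adjusted p = 0.125 (edgeR). Ccr1, read out in the same cells as its ligands, was at 132 and 184 against 89.4 and 126 CPM, with a log2 change of -0.37 (SE 0.25, adjusted p = 0.339, edgeR). The receptors Cxcr3 and Cxcr6 were low in macrophages, Cxcr3 at no more than 1.35 CPM and Cxcr6 at no more than 2.68 CPM in any library.

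Cxcl10, also called IP-10, was the one of the 9 that fell. It was at 21.7 and 39.5 CPM in siCont macrophages and at 6.57 and 6.55 CPM in siFXR1-LNA, groups that did not overlap. The log2 change was -2.04 (SE 0.33, adjusted p = 0.0191, edgeR), and without siFXR1-LNA replicate 1 or 2 it missed the threshold (adjusted p = 0.111 and 0.0935). Cxcl9, the interferon-gamma-induced ligand that shares CXCR3 with Cxcl10, was rarer, at 4.09 and 6.67 against 1.90 and 1.52 CPM, from 94, 115, 43 and 50 UMIs. Its log2 change of -1.47 (SE 0.37) stood just outside the threshold (adjusted p = 0.051, edgeR). It was inside without siCont replicate 1. With all 4 libraries it was inside with DESeq2 (adjusted p = 0.0178), with no filter on low counts (adjusted p = 0.0083) and with mixed subclusters kept (adjusted p = 0.0421). Over 15 alternatives the log2 change ran from -1.81 to 0.17, so its sign did not hold in all of them.

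**Figure D3:**
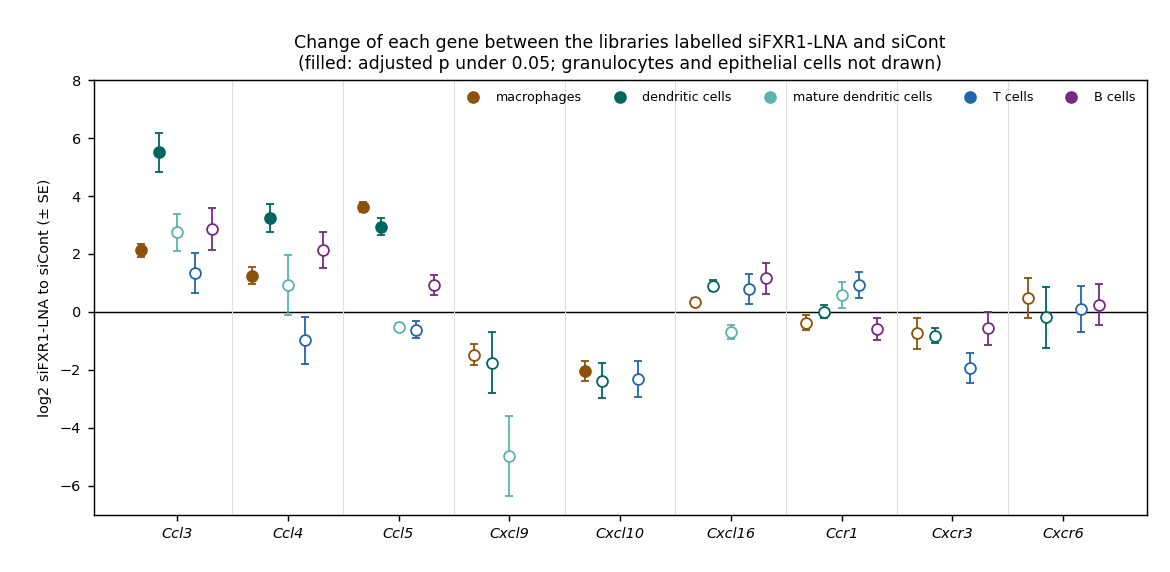
Log2 change of each of the 9 genes, siFXR1-LNA to siCont, with its SE from edgeR on sums over 2 libraries per group, in 5 cell types, where filled points passed an adjusted p of 0.05. Ccl3, Ccl4 and Ccl5 are filled in macrophages and dendritic cells, Cxcl10 in macrophages, and no point of mature dendritic, T or B cells is filled.

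Cxcl9 and Cxcl10 lie side by side on mouse chromosome 5, on the minus strand, and Ccl3, Ccl4 and Ccl5 on chromosome 11 (GRCm38). Sequences of 250 bases before the start were available from RefSeq (GRCm38.p6) for 6 of the 9 genes, and Ccl4, Ccl5 and Cxcl16 are named only. Of the 6, 3 are printed because their genes moved apart in macrophages, Cxcl10 down, Cxcl9 in the same direction and Ccl3 up. Each reads 5' to 3' on the minus strand and ends just before the start of transcription, and capitals mark matches to the motifs searched on both strands: the interferon-stimulated response element GAAANNGAAA, the gamma-activated site TTCNNNGAA and the NF-kappa-B consensus.
Cxcl10, chr5:92348890-92349139: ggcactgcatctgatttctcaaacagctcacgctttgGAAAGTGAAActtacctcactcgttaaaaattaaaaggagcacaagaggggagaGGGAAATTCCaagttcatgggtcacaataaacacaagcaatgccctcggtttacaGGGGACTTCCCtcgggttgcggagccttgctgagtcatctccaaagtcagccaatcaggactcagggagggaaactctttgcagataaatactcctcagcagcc
Cxcl9, chr5:92328080-92328329: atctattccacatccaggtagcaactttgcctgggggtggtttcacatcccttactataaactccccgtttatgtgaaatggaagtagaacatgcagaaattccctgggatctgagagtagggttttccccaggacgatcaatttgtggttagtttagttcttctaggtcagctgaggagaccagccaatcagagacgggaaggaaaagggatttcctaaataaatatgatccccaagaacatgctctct
Ccl3, chr11:83649379-83649628: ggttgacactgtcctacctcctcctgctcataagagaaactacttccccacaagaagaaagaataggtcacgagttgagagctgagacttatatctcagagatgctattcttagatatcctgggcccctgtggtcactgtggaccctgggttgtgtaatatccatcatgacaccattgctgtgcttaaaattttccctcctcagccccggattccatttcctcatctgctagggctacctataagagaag
The Cxcl10 stretch held an interferon-stimulated response element match 213 to 204 bases before the start and NF-kappa-B matches at 159 to 150 and at 104 to 95, the last overlapped by another at 103 to 94. None of the 3 motifs was matched in the Cxcl9 or Ccl3 stretch, which says only that these letters are not in these windows. Among 32851 promoters of the same length, 2.98% held the interferon-stimulated response element, 7.02% the gamma-activated site and 7.25% the NF-kappa-B consensus. Among the other members with a sequence, Ccr1 held 1 NF-kappa-B match, at 74 to 65 bases before its start, and Cxcr3 and Cxcr6 held none of the 3 motifs.

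The macrophages of the 2 groups did not come from the same subclusters, which bears on every macrophage value above. Subcluster 1, led by Saa3, Mt2 and Lcn2, held 0 and 1 siCont cells against 2105 and 1915 siFXR1-LNA cells. Subcluster 2, led by the interferon-induced Slfn4, Irf7 and Ifit2, held 1024 and 713 siCont cells and no siFXR1-LNA cell. Subcluster 0, led by Alox15 and Prg4, genes of resident peritoneal macrophages, held cells of all 4 libraries, 2991, 1223, 1173 and 1300. In subcluster 1, Ccl5 was at 639 and 636 CPM, Ccl3 at 111 and 114 CPM and Ccl4 at 158 and 175 CPM in the siFXR1-LNA libraries. In subcluster 2, Cxcl10 was at 83.8 and 107 CPM, Cxcl9 at 16.1 and 14.9 CPM and Cxcl16 at 171 and 187 CPM in the siCont libraries. Subclusters 1 and 2 were thus filled almost wholly by one group each, and a change of state and a change of cells cannot be told apart there.

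Subclusters 0, 4 and 6 were filled by all 4 libraries, and whether the change differed between them was not tested. In subcluster 0, Ccl5 was at 22.6 and 21.5 against 74.0 and 37.4 CPM, all under the 89.1 and 92.6 CPM of the siFXR1-LNA Dcn-led cells. Ccl3 was at 18.7 and 24.6 against 36.8 and 39.4 CPM there, and Ccl4 at 31.8 and 24.9 against 23.5 and 26.4 CPM. No member passed the threshold in subcluster 0 (adjusted p = 0.466 for Ccl5, 0.426 for Ccl3 and 0.767 for Ccl4, edgeR), where 0 of 12612 genes were called. In subcluster 6, led by the proliferation genes Pclaf, Birc5 and Top2a, Ccl5 was at 71.2 and 37.3 against 899 and 438 CPM, from 231, 149, 22 and 45 cells. That rise passed the threshold (log2 3.74, adjusted p = 0.000969, edgeR), and so did Ccl3 (9.34 and 9.18 against 20.8 and 71.1 CPM, log2 2.68, adjusted p = 0.0130), against a background of 3.36% of genes called. In subcluster 4, led by Cacna1d and Fmnl2, with Nos2 among its genes, Ccl3 was at 0 and 13.6 against 51.6 and 52.5 CPM (adjusted p = 0.0265, edgeR). Ccl5 also passed there (adjusted p = 0.0336, edgeR), at 20.5 and 20.3 against 75.1 and 64.8 CPM, values under those of the Dcn-led cells, and 9.69% of genes were called in that subcluster. Cxcl10 overlapped between the groups in subcluster 0, at 4.85 and 1.47 against 1.54 and 0.508 CPM. It also overlapped in subcluster 6, at 16.34 and 22.02 against 0 and 16.83 CPM. In subcluster 4 Cxcl10 was higher in both siFXR1-LNA libraries, at 0 and 0 against 5.32 and 3.24 CPM, from 10 and 5 UMIs. The part of the subclusters in the fall of Cxcl10 over all macrophages was not tested.

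**Figure D4:**
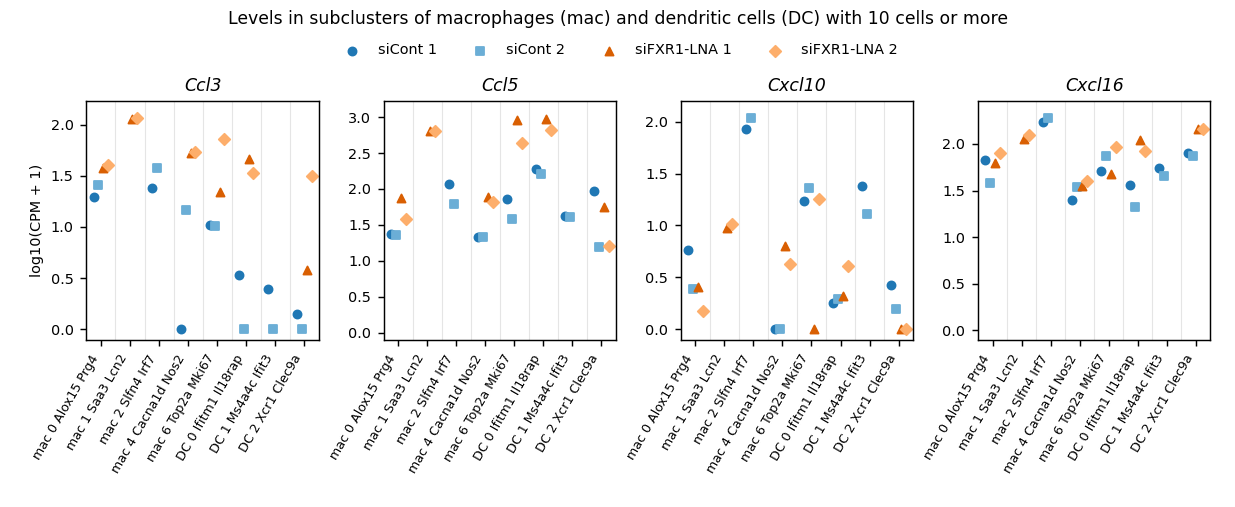
Level of Ccl3, Ccl5, Cxcl10 and Cxcl16 as log10(CPM + 1) in 5 macrophage and 3 dendritic cell subclusters, named by leading genes, one point per library with 10 cells or more. Macrophage subcluster 1 has only siFXR1-LNA points, near 639 CPM for Ccl5, and macrophage subcluster 2 only siCont points, the highest for Cxcl10.

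Markers of other cells were also counted in the macrophages. All 9 granulocyte markers were higher in both siFXR1-LNA libraries, summing to 121 and 425 CPM in siCont and 1287 and 1539 CPM in siFXR1-LNA, with S100a8 the most abundant and none at 0. The 6 erythrocyte markers summed to 82315, 58762, 29597 and 12315 CPM, with Hbb-bs first, 5 lower in both siFXR1-LNA libraries and none at 0. Dendritic cell markers summed to 87.2, 67.7, 13.1 and 19.2 CPM with Mgl2 first (8 of 10 lower in both, none at 0), and B cell markers to 118, 98.7, 30.9 and 49.2 CPM with Bank1 first (6 of 8 lower in both, none at 0). Mast cell markers summed to 490, 183, 33.2 and 35.1 CPM with Cma1 first (5 of 7 lower in both). Fibroblast markers summed to 73.3, 17.3, 222 and 66.3 CPM with Dcn first (0 of 5 higher or lower in both). The macrophages' own markers summed to 41249, 30612, 19861 and 31292 CPM, with 5 of 9 lower and 2 higher in both siFXR1-LNA libraries. The part of these lists in the result was not tested. The 8 T cell markers summed to 13.4, 11.3, 7.32 and 12.0 CPM in macrophages and the 8 mature dendritic cell markers to 23.9, 14.9, 19.2 and 13.0 CPM. After removal of macrophages with a UMI of Cd3d, Cd3e, Cd3g, Nkg7, Cd79a, Cd79b or Ms4a1, the log2 change was 3.75 for Ccl5 and 2.18 for Ccl3, a removal that did not use granulocyte markers. The share of macrophages with a Ccl5 UMI, each cell thinned to 1000 UMIs, was 1.96% (1.57 to 2.42) and 1.68% (1.17 to 2.32) in siCont and 13.6% (12.5 to 14.7) and 12.1% (11.1 to 13.2) in siFXR1-LNA. In the Dcn-led cells the same share was 7.997% (7.74 to 8.26) and 8.497% (7.70 to 9.35) in the siFXR1-LNA libraries, and the macrophage shares lay above it. Median depth before thinning was 4931, 7930, 5208 and 8608 UMIs in macrophages and 1264 and 2135 in the siFXR1-LNA Dcn-led cells. Unthinned, the macrophage share rose from a mean of 6.74% (SD 0.635, n = 2) to 29.4% (SD 1.72, n = 2).

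Dendritic cells, which take up antigen and show it to T cells, also had higher Ccl3, Ccl4 and Ccl5 in siFXR1-LNA. Of the 9 genes, 3 rose and none fell past the threshold, against 3.3% of 11448 genes called, 1.54% higher and 1.76% lower. In both siFXR1-LNA libraries 4 of the 9 were higher and 3 lower, beside 29.7% and 24.1% of all genes. Ccl5 was at 88.8 and 54.6 CPM in siCont and 678 and 467 CPM in siFXR1-LNA. The groups were far apart, and Ccl5 rose 7.71-fold (log2 2.95, SE 0.29, adjusted p = 0.0072, edgeR). Ccl4 was at 7.86 and 2.21 against 57.0 and 45.3 CPM (log2 3.24, SE 0.47, adjusted p = 0.0185, edgeR). Ccl3 was at 1.23 and 0 against 32.2 and 32.8 CPM, from 8, 0, 43 and 76 UMIs and beside 13.2 and 13.4 CPM in the siFXR1-LNA Dcn-led cells (log2 5.51, SE 0.67, adjusted p = 0.0111, edgeR). All 3 rises lost the threshold when either siFXR1-LNA library was left out, with adjusted p = 0.0659 and 0.0538 for Ccl5, while the directions stayed. In those fits 0 of 12410 and 19 of 12415 genes were called.

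Other members moved less in dendritic cells. Cxcl16 was at 58.6 and 48.3 against 115 and 92.7 CPM, groups that did not overlap, with a log2 change of 0.90 (SE 0.19, adjusted p = 0.0571, edgeR). It passed with DESeq2 (adjusted p = 0.027), with no filter on low counts (adjusted p = 0.000576) and without siCont replicate 1 (adjusted p = 0.0135), and missed in the other 3 fits with one library left out. Cxcr3 was at 48.2 and 48.9 against 19.5 and 35.8 CPM (log2 -0.81, SE 0.26, adjusted p = 0.152, edgeR). Cxcl10 was at 10.3 and 5.88 against 0.75 and 2.16 CPM (log2 -2.37, SE 0.61, adjusted p = 0.097, edgeR), from 67, 32, 1 and 5 UMIs. Under the alternatives, Cxcl10 gained the threshold in 3 of 12 settings and Cxcr3 in 2 of 13. With the replicate block, Cxcl16, Cxcl10 and Cxcr3 all passed. Ccr1 was level at 42.7, 64.5, 54.0 and 57.8 CPM, with a log2 change of 0.01 (SE 0.24). Cxcl9 was at 3.39, 4.41, 3.00 and 0 CPM and Cxcr6 at 5.39, 0.735, 0.750 and 4.31 CPM.

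Subclusters located these genes among the dendritic cells. Subcluster 0, led by Ccl5 itself, Ifitm1 and Tmem176a, was filled by all libraries (292, 145, 195 and 242 cells). There Ccl5 was at 186 and 162 against 956 and 663 CPM (log2 2.18, adjusted p = 0.0059, edgeR), and Cxcl16 at 35.5 and 19.9 against 109 and 82.8 CPM (log2 1.72, adjusted p = 0.0455, edgeR). Ccl3 passed there too (log2 4.76, adjusted p = 0.0107, edgeR), beside 1.19% of genes called. Subcluster 2, led by Xcr1 and Clec9a, the receptors of cross-presenting dendritic cells, carried Ccl5 at 93.9, 14.6, 55.4 and 15.1 CPM, values that overlapped. The same subcluster held much of the dendritic cells' Cxcr3, at 121 and 143 against 55.4 and 108 CPM (log2 -0.63, adjusted p = 0.448, edgeR). Siglech-led subcluster 3, with 27, 15, 13 and 20 cells, also carried Cxcr3, at 78.3, 51.0, 82.6 and 137 CPM. No member was tested there, so no member could pass beside the 2.76% of 1524 genes called. In subcluster 2 none of the 4 members tested passed, beside 0.768% of genes called. Subcluster 1, led by Ms4a4c and Ifit3, was present almost only in siCont (512 and 287 cells against 0 and 7), and its Cxcl10 was at 22.8 and 11.9 CPM.

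Whether the change differed between dendritic cells and macrophages was tested directly, as an interaction in edgeR with the library as a block. It differed for 3 of the 9 genes, beside 1058 of 14137 genes, or 7.48%. The rise of Ccl3 was larger in dendritic cells by a log2 difference of 3.41 (SE 0.51, adjusted p = 0.000404), which ran from 2.25 to 9.88 with one library left out and rests on 8 and 0 UMIs in siCont dendritic cells, and that of Ccl4 by 1.91 (SE 0.42, adjusted p = 0.008). Ccl5 rose less in dendritic cells, by -0.65 (SE 0.18, adjusted p = 0.0413). The Ccl4 difference missed the threshold without siFXR1-LNA replicate 1 (adjusted p = 0.117), and the Ccl5 difference without siCont replicate 1 or either siFXR1-LNA library (adjusted p = 0.178, 0.0553 and 0.405). For Cxcl10, which was lower in both types, the difference was -0.38 and did not pass. Granulocyte markers were higher in dendritic cells as well, 6 of 9 in both siFXR1-LNA libraries and a sum of 124, 715, 1375 and 1112 CPM with S100a9 the most abundant, and the mature dendritic cell markers summed to 49.8 and 21.1 against 130 and 106 CPM, with Ccr7 the most abundant, 3 of 8 higher and none at 0. The dendritic cells' own markers summed to 1945, 2168, 908 and 1316 CPM (6 of 10 lower in both siFXR1-LNA libraries, 2 higher), and 8 of 8 B cell and 6 of 6 erythrocyte markers were lower in both. The part of these lists in the result was not tested.

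Mature dendritic cells, which carry antigen to lymph nodes under CCR7, carried Ccl5 and Cxcl16 at high levels, and neither passed the main test in edgeR. Ccl5 was at 8811 and 9283 against 6268 and 7226 CPM, lower in both siFXR1-LNA libraries, with a log2 change of -0.51 (SE 0.13, adjusted p = 0.0771, edgeR). Cxcl16 was at 612 and 825 against 436 and 506 CPM (log2 -0.69, SE 0.23, adjusted p = 0.181, edgeR). Cxcl9 was at 12.7 and 58.2 against 2.99 and 0 CPM, from 24, 69, 1 and 0 UMIs (adjusted p = 0.112, edgeR). Cxcl9 passed with DESeq2 (adjusted p = 0.0424) and in each of the 3 edgeR fits with one library left out in which it was tested (adjusted p from 8.26e-12 to 0.0047). Ccl3 was at 2.12 and 5.06 against 17.9 and 29.0 CPM, beside 13.2 and 13.4 CPM in the siFXR1-LNA Dcn-led cells (adjusted p = 0.0612, edgeR). With one library left out, Ccl5 passed in 2 of 4 fits (adjusted p from 3.22e-06 to 0.319), Cxcl16 in 1 of 4 (0.0231 to 0.603) and Ccl3 in 1 of 4 (0.0161 to 0.442). With all 4 libraries and no filter on low counts, 3 members passed in edgeR, Ccl5 (adjusted p = 0.028) and Ccl3 (adjusted p = 0.0013) among them. Ccl3 also passed with the listed genes kept for clustering (adjusted p = 0.0497, edgeR). At resolution 0.3 it was 1 of 2 members that passed (adjusted p = 0.0069, edgeR). None of the 6 members tested passed in the main edgeR fit, beside 2.55% of genes called (1.21% higher, 1.35% lower), while 4 had an unadjusted p under 0.05 and DESeq2 called 1. With the replicate block, 3 passed in edgeR, namely Cxcl9, Ccl5 and Ccl3. In both siFXR1-LNA libraries 2 of the 6 were higher and 3 lower, beside 29.3% and 20% of all genes. All 9 granulocyte markers were higher in the siFXR1-LNA libraries there too, summing to 76.3, 354, 4703 and 1507 CPM with S100a9 first and none at 0. The cells' own markers summed to 5863, 7784, 3914 and 5712 CPM with Ccr7 first (4 of 8 lower in both siFXR1-LNA libraries, 1 higher). T cell markers summed to 105, 86.9, 12.0 and 36.7 CPM (7 of 8 lower in both) and B cell markers to 453, 324, 65.7 and 84.0 CPM (8 of 8 lower in both). The part of these lists in the result was not tested.

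Granulocytes, short-lived phagocytes, could be compared only against the 12 and 49 cells of siCont. Ccl3 was at 0 and 0 CPM in siCont and at 432 and 789 CPM in siFXR1-LNA, from 4338 and 8196 UMIs, the highest Ccl3 of any type tested. Against a floor of 3 counts over these 12 and 49 siCont cells, Ccl3 was at least 55.3-fold higher (adjusted p = 7.85e-14, edgeR). With no siCont UMI, Ccl3 passed the filter on low counts only through the siFXR1-LNA libraries. The bound does not cover the siCont cells set apart as mixed. Ccl4 was at 0 and 35.3 against 135 and 222 CPM (log2 2.53, SE 0.59, adjusted p = 0.00065, edgeR). Ccr1 was at 22.8 and 216 against 162 and 259 CPM, overlapping groups with a log2 change of 0.30 (SE 0.45, adjusted p = 0.736, edgeR). The third call was Ccl5, at 0 and 8.83 against 67.2 and 76.5 CPM, which rests on 2 siCont UMIs (ratio 9.73, counting interval 2.69 to 80.4) and lies under the 89.1 and 92.6 CPM of the Dcn-led cells. These 3 of 7 members passed beside 9.03% of 11490 genes (5.26% higher, 3.78% lower), and 5 of 7 were higher and none lower in both siFXR1-LNA libraries, beside 47.1% and 12.4% of all genes. The median log2 change was 2.53 over the 7 members and 0.47 over all genes, and no member passed with either siFXR1-LNA library left out, where 0 of 4702 and 0 of 4788 genes were called. The granulocytes of the groups lay mostly in different subclusters. Subcluster 3, led by Camp, Ltf and Ngp, held 11 and 32 siCont cells against 33 and 42, and subcluster 0, led by Ccrl2, Dock10 and Ccl3 itself, held 1 and 17 against 4990 and 4348. In subcluster 0 Ccl4 was at 461 CPM in siCont replicate 2, from 8 UMIs, above the 137 and 225 CPM of siFXR1-LNA. In subcluster 3 it was at 0 and 0 against 26.0 and 128 CPM, and Ccl3 at 0 and 0 against 130 and 370 CPM. The part of the subclusters in the granulocyte differences was not tested. The 9 granulocyte markers summed to 276577 and 247861 CPM in siCont and 30954 and 48113 CPM in siFXR1-LNA. B cell markers summed to 593 and 463 against 32.3 and 37.0 CPM (6 of 8 lower in both siFXR1-LNA libraries). Mast cell markers summed to 752 and 322 against 110 and 129 CPM (3 of 7 lower in both, 1 higher). The part of these lists in the result was not tested. A further 428, 853, 19 and 261 cells of a subcluster that mast cell genes (Cma1, Mcpt4, Tpsb2) led beside Cxcr2 and Csf3r were kept apart as mixed, and carried Ccl3 at 28.5, 19.5, 175 and 105 CPM. With mixed subclusters kept in their parent type, Ccl3 alone passed (log2 4.51, adjusted p = 0.0044).

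T cells, the receivers of CXCR3 and CXCR6 signals, showed no member past the threshold. None of 8 tested passed with edgeR, beside 0.315% of 12053 genes (0.207% higher, 0.108% lower), 2 had an unadjusted p under 0.05, and DESeq2 called 1. In both siFXR1-LNA libraries 3 of the 8 were higher and 3 lower, beside 33.8% and 12.4% of all genes. The gene that DESeq2 called was Cxcr3, at 107 and 108 CPM in siCont and 13.0 and 49.6 CPM in siFXR1-LNA. Both siFXR1-LNA values lay well under the nearly equal siCont values, with a log2 change of -1.95 (SE 0.52, adjusted p = 0.255 with edgeR and 0.006 with DESeq2). The share of T cells with a Cxcr3 UMI at 1000 UMIs per cell was 10.0% (8.83 to 11.4) and 10.4% (9.18 to 11.8) in siCont and 1.30% (0.696 to 2.22) and 4.36% (3.26 to 5.69) in siFXR1-LNA. Macrophages, which should lack it, gave 0.093%, 0.048%, 0.026% and 0.082% by the same count, far below. Thinning left out 130, 88, 17 and 35 T cells of lower depth, the median depth of T cells was 1997, 2533, 1895 and 2305 UMIs, and unthinned the mean share went from 20.1% (SD 1.52, n = 2) to 6.25% (SD 5.35, n = 2).

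Cxcr6 did not separate by group. It was at 193 and 136 CPM in siCont T cells and at 43.2 and 366 CPM in siFXR1-LNA, so that the lowest and the highest library carried the same label (log2 0.10, SE 0.81, adjusted p = 0.973, edgeR). By share of cells at 1000 UMIs it was 15.3% (13.8 to 16.8), 11.0% (9.75 to 12.5), 3.61% (2.54 to 4.96) and 22.5% (20.2 to 25.0). Ccl5, also a product of cytotoxic T cells, was at 1322 and 1369 against 814 and 1159 CPM (log2 -0.62, SE 0.30, adjusted p = 0.474, edgeR). Cxcl10 in T cells was at 13.3 and 8.34 against 0.96 and 3.63 CPM (adjusted p = 0.254, edgeR), below the macrophages of the same libraries. TMM scaling put the median log2 change in T cells 0.16 below that of plain CPM ratios. The 8 T cell markers summed to 1911, 2640, 895 and 1900 CPM with Cd3d first, 5 lower in both siFXR1-LNA libraries and none at 0, the 8 NK cell markers to 480, 651, 249 and 354 CPM with Nkg7 first, 5 lower in both and none at 0, and the 9 granulocyte markers to 75.2, 461, 702 and 730 CPM with S100a9 first, 7 higher in both siFXR1-LNA libraries and none at 0. Erythrocyte markers summed to 215630, 179795, 75170 and 39106 CPM (5 of 6 lower in both siFXR1-LNA libraries). Mast cell markers summed to 1261, 539, 109 and 113 CPM (6 of 7 lower in both). The part of all these lists in the result was not tested.

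The T cells, like the macrophages, split by library. Subcluster 0, with Ifi27l2a, Ifit3 and Cd4 among its leading genes, held 1666, 1786, 4 and 40 cells, and subcluster 1, led by Calca, Ccn2, Ndrg1 and Vegfa, held 1, 7, 740 and 513. Cxcr3 was at 115 and 109 CPM in the siCont cells of subcluster 0 and at 12.3 and 57.0 CPM in the siFXR1-LNA cells of subcluster 1. The 40 cells of siFXR1-LNA replicate 2 in subcluster 0 carried it at 117 CPM, from 17 UMIs, as high as the siCont cells there. Subclusters 2 and 3 were filled by all libraries. Subcluster 2, led by the gamma-delta T cell genes Cd163l1, Trdv4, Tcrg-V6 and Trdc, held 436, 161, 117 and 447 cells and had the highest Cxcr6 level of the 4 subclusters in each library, at 675 and 638 against 258 and 912 CPM, groups that overlapped. Its cells made up a larger part of siFXR1-LNA replicate 2 than of siFXR1-LNA replicate 1, in the same order as the Cxcr6 level over all T cells. The order was the other way between siCont replicate 2 and siFXR1-LNA replicate 1. There it held 161 of 2233 and 117 of 1014 T cells, and Cxcr6 over all T cells was higher in siCont replicate 2. The part of this makeup in the Cxcr6 level was not tested. Cxcr3 in subcluster 2 was at 91.4 and 135 against 3.68 and 38.3 CPM (log2 -2.19, adjusted p = 0.121, edgeR). In subcluster 3, led by Themis and Inpp4b, Cxcr3 was at 67.9 and 75.4 against 24.4 and 31.2 CPM (log2 -1.52, adjusted p = 0.143, edgeR) and Cxcr6 at 81.9 and 80.5 against 12.2 and 50.4 CPM. Cxcr3 was thus lower in both siFXR1-LNA libraries in subclusters 2 and 3, short of the threshold in each, beside 0.833% and 1.04% of genes called.

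**Figure D5:**
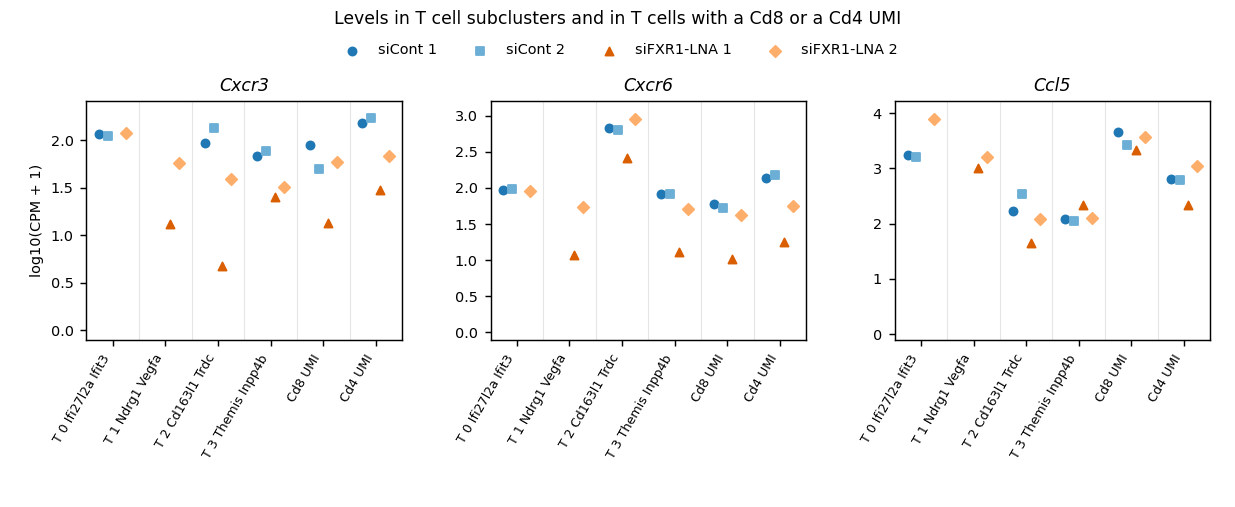
Level of Cxcr3, Cxcr6 and Ccl5 as log10(CPM + 1) in 4 T cell subclusters and in T cells with a Cd8 or a Cd4 UMI, one point per library with 10 cells or more. Cxcr6 stands highest in subcluster 2, led by Cd163l1 and Trdc, and Cxcr3 is lower in the siFXR1-LNA libraries in subclusters 2 and 3.

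T cells were also split by their coreceptor. In T cells with a Cd4 UMI (419, 567, 71 and 119 cells), Cxcr3 was at 149 and 169 against 28.5 and 67.6 CPM and Cxcr6 at 138 and 152 against 17.1 and 54.7 CPM, both lower in both siFXR1-LNA libraries, while Ccl5 overlapped at 651 and 613 against 217 and 1100 CPM. In T cells with a Cd8a or Cd8b1 UMI (253, 522, 129 and 208 cells), Cxcr3 was at 87.2 and 49.1 against 12.3 and 58.2 CPM, which overlapped, and Cxcr6 at 58.6 and 52.0 against 9.23 and 41.3 CPM, which did not. Ccl5 in those cells was at 4493 and 2590 against 2159 and 3642 CPM, which overlapped too. T cells with neither carried most of the Cxcr6, at 233, 179, 53.1 and 518 CPM. These subsets were described and not tested. NK cells, too few for a test, held Cxcr3 at 71.7, 55.9, 0 and 132 CPM and Cxcr6 at 147, 55.9, 0 and 106 CPM.

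B cells and epithelial cells held little of the 9 genes. Of 7 members tested in B cells none passed with edgeR, beside 0.164% of genes called (0.131% higher, 0.0328% lower), although 3 had an unadjusted p under 0.05 and DESeq2 called 1. In both siFXR1-LNA libraries 4 of the 7 were higher and 1 lower, beside 36.4% and 13.3% of all genes. B cells also held Cxcr3, at 25.9 and 29.2 against 7.73 and 35.9 CPM, values that overlapped. Ccl5 in B cells was at 21.9, 38.5, 74.6 and 55.5 CPM, and the other 7 members were at no more than 13.7 CPM in any library. Of 4 tested in epithelial cells none passed with edgeR or DESeq2, beside 7.16% of genes called (2.61% higher, 4.54% lower), and 1 had an unadjusted p under 0.05. In both siFXR1-LNA libraries 1 of the 4 was higher and 1 lower, beside 25.5% and 25.8% of all genes. The gene with the low p was Cxcl10, at 6.18 and 4.58 against 1.55 and 0.375 CPM (adjusted p = 0.0736, edgeR), from 30, 4, 11 and 1 UMIs. Epithelial Ccl5 was at 61.8, 4.58, 19.6 and 28.5 CPM, Cxcl16 at 30.3, 19.5, 24.5 and 32.6 CPM, and the remaining 6 members at no more than 11.5 CPM. Cxcl10 was thus lower in both siFXR1-LNA libraries in macrophages, dendritic cells, T cells and epithelial cells, and past the threshold in macrophages. Granulocytes went the other way, short of the threshold. Their 12 and 49 siCont cells held no Cxcl10 UMI, and the siFXR1-LNA granulocytes held a mean of 13.8% (SD 8.57) of all Cxcl10 UMIs. Over the alternatives the log2 change in granulocytes ran from -0.47 to 7.89.

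Other chemokines gave the setting for these changes. In macrophages, 5 of the 19 tested from a list of 29 other chemokines rose and 2 fell, beside 9.35% and 9.61% of all genes, with a median log2 change of 0.55. The neutrophil attractants led, since Cxcl2 was at 9.24 and 11.9 against 717 and 888 CPM (log2 6.43, adjusted p = 0.0024) and Cxcl3 at 0.697 and 2.32 against 262 and 305 CPM (log2 7.79, adjusted p = 0.0051, edgeR). Cxcl5 was at 0.218 and 0 against 11.5 and 11.1 CPM (log2 6.67, adjusted p = 0.0079, edgeR). Ppbp was at 3.35 and 3.77 against 66.5 and 57.0 CPM (log2 4.31, adjusted p = 0.0023, edgeR). Both are also ligands of CXCR2. With one library left out, the log2 change of Cxcl5 ran from 5.89 to 11.1, and the call stayed in 3 of 4 fits. Ccl12, a ligand of CCR2, fell from 69.5 and 68.2 to 8.59 and 23.6 CPM (log2 -1.90, adjusted p = 0.0452), a call lost in 2 of 4 fits with one library left out (highest adjusted p = 0.104). Cxcl2 and Cxcl3 also rose in granulocytes, dendritic cells, mature dendritic cells, T cells, B cells and epithelial cells. With one library left out, both calls were lost in 2 of 4 fits in granulocytes (highest adjusted p = 0.31 for both), dendritic cells (0.0705 for Cxcl2 and 0.0538 for Cxcl3) and T cells (0.127 and 0.0873), and that of Cxcl3 in 2 of 4 in B cells (0.153) and 1 of 4 in epithelial cells (0.0938). In granulocytes Cxcl2 reached 2395 and 4620 CPM, against 71.5 and 106 CPM in T cells and 71.3 and 98.5 CPM in B cells of the same libraries, which also carried more granulocyte marker UMIs.

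Among 20 other chemokine receptors, 10 were tested in macrophages, and 2 rose and 3 fell, beside 9.35% and 9.61% of all genes. Cx3cr1, the fractalkine receptor, fell from 67.5 and 74.6 to 10.3 and 24.2 CPM (log2 -1.85, adjusted p = 0.0351, edgeR), a call lost in 2 of 4 such fits (highest adjusted p = 0.0922). In dendritic cells Ccr7 rose from 6.47 and 2.57 to 69.7 and 62.5 CPM (log2 3.78, adjusted p = 0.0055) and Xcr1 fell from 102 and 102 to 46.5 and 57.8 CPM (log2 -1.004, adjusted p = 0.0329, edgeR). Each was lost in 2 of 4 fits with one library left out (highest adjusted p = 0.0705 for Ccr7 and 0.184 for Xcr1). Xcr1 is in the marker list that named dendritic cells and Ccr7 in the list that named mature dendritic cells. The levels of both in dendritic cells thus depend in part on the naming. Of 12 other receptors tested in T cells, none passed, beside 0.315% of all genes, and the median log2 change was -0.26 against -0.00 over all genes.

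Genes of the interferon-gamma axis, which drives Cxcl9 and Cxcl10, were followed as a further list. In mature dendritic cells 1 of 10 fell, beside 1.35% of all genes, the transcription factor gene Irf8, from 279 and 379 to 65.7 and 115 CPM (log2 -1.90, adjusted p = 0.0234, edgeR). Macrophages had 3 lower and 1 higher of 9, with a median log2 change of -0.06, beside 9.61% and 9.35% of all genes. In T cells none of the 10 tested passed, and none of 12 T cell effector genes did, beside 0.315% of all genes, with a median log2 change of -0.65 for the latter. Of 4 genes that process chemokines, macrophages raised Mmp9, a protease that trims them, from 15.3 and 13.9 to 243 and 238 CPM (log2 4.23, adjusted p = 0.0017), and lowered Dpp4, which clips and inactivates CXCR3 ligands, from 11.8 and 11.7 to 2.86 and 2.65 CPM (log2 -1.90, adjusted p = 0.0081, edgeR), the latter lost in 1 of 4 fits with one library left out (adjusted p = 0.0536). Mmp9 is also a granulocyte marker of the list used here.

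The genes that varied most like each member across 43 sums of cell type by library were found by Pearson correlation of log2(CPM + 1), which is a description, since sums of 1 library share its depth and its background. Cxcr6 was most like Adam12 (r = 0.96), Ctsw and Trdc (r = 0.95 each), of which Adam12 and Trdc are among the leading genes of T cell subcluster 2. Cxcr3 was most like Tbx21 (r = 0.90), which encodes the transcription factor T-bet, then Oprm1 and Ppp1r16b. Ccl5 was most like AW112010 (r = 0.91), then Il2ra and Tnfrsf9. Ccl3 was most like Cxcl3 (r = 0.80), Ccrl2 and Zc3h12a, and Cxcl10 most like Fcrls (r = 0.77), Gbp6 and Gm4951. Ccr1 was most like F630028O10Rik (r = 0.88), and Cxcl16 most like Ccdc88a (r = 0.89). Cxcl9 was most like Sct (r = 0.82) and Ccl4 most like Zbtb16 (r = 0.76). Among the members themselves the closest pairs were Ccl3 with Ccl4 (r = 0.78), Cxcr3 with Cxcr6 (r = 0.74) and Cxcl9 with Cxcl16 (r = 0.67).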

How the data were processed

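Single-cell libraries of ascites from 4 samples, 2 siCont and 2 siFXR1-LNA, were used as the authors deposited them, as matrices of UMI counts per gene and cell, raw and not normalized, made with Cell Ranger 7.0.0 per the submitters' processing notes and the mm10 genome. The labels and the design text name different versions of the 3' chemistry. The study's methods leave out 1 siFXR1-LNA replicate that had fewer reads and cells. Of the 2 deposited siFXR1-LNA libraries, replicate 2 held fewer UMIs (78179267 against 113606837) and barcodes (17309 against 54665), but no label names the one left out. All 4 samples were kept, and each was left out in turn.

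Clustering used cells in which 100 to 4800 genes were detected and mitochondrial UMIs made up 15% or less, and was run in Seurat 5.3.0 (R 4.3.3) on 2000 variable genes and 50 principal components at resolution 0.1, with the 9 members and the listed chemokine and receptor genes left out. Clusters and second-round subclusters were named from marker lists, and subclusters led by markers of another class were set apart as mixed. Scrublet in scanpy 1.11.5 called 1, 0, 0 and 0 doublets and so had not worked, and removing the 5% of cells with the highest scores served as an alternative. UMI counts were summed per cell type and library and tested with edgeR 4.0.16 (quasi-likelihood test, TMM, filterByExpr) where each library held at least 10 cells, with Benjamini-Hochberg adjustment over all genes and a threshold of 0.05. TMM moved the median log2 change relative to CPM ratios by 0.19 in macrophages, -0.15 in granulocytes, -0.05 in dendritic cells, -0.09 in mature dendritic cells, -0.16 in T cells, -0.19 in B cells and 0.01 in epithelial cells. The procedure was tested on simulated sums with known changes. Of 4-fold changes it recovered 78.7% in macrophages, 23.5% in granulocytes, 81.6% in dendritic cells and 82.1% in mature dendritic cells. The share was 69.7% in T cells, 67.7% in B cells and 86.7% in epithelial cells. Of 8-fold changes it recovered 62.3% in granulocytes and 87.1% to 100% in the other types. DESeq2 1.42.0, a block for the replicate number, RLE factors, all genes without a count filter, leaving out each library, other cell filters and other clusterings were the alternatives. Mixed subclusters kept in their parent type and single subclusters were added after seeing the data.

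The members and gene lists were chosen with earlier results of these data known. Any of the 9 members could be named in any type. From the lists, genes that passed the test and whose siFXR1-LNA values shared a direction could be named, up to 5 rises and 5 falls per type, with the 3 genes most like each member among those with at least 20 CPM in a sum, and Fxr1. Leading genes of clusters identify them only. A result on 1 gene of these lists is not reported here.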

Additional observations from a re-analysis of the deposited data

Results flagged for a closer look

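The change of 3 members differed between dendritic cells and macrophages by the interaction test in edgeR, with 2 libraries per group. The log2 change in dendritic cells minus that in macrophages was 3.41 for Ccl3, 1.91 for Ccl4 and -0.65 for Ccl5, with adjusted p = 0.000404, 0.008 and 0.0413. With one library left out, the difference ran from 2.25 to 9.88 for Ccl3, past the threshold in 4 of 4 fits, from 0.91 to 3.56 for Ccl4, in 3 of 4, and from -0.88 to -0.44 for Ccl5, in 1 of 4. Ccl3 and Ccl4 were higher in both siFXR1-LNA libraries in both cell types.

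Ccl5 had log2 changes of opposite sign in different cells. It was -0.62 in T cells (adjusted p = 0.474, edgeR) and -0.51 in mature dendritic cells (adjusted p = 0.0771, edgeR), lower in both siFXR1-LNA libraries in each and short of the threshold, against 2.95 in dendritic cells and 3.63 in macrophages, higher in both. The difference of T cells and of mature dendritic cells from dendritic cells and from macrophages was not tested. Over the alternatives the value ran from -1.66 to 0.43 in T cells and from -0.66 to 0.13 in mature dendritic cells. Within the T cells Ccl5 went both ways, at 166 and 340 against 44.2 and 120 CPM in subcluster 2 and at 120 and 109 against 216 and 127 CPM in subcluster 3. In T cell subcluster 0 it was at 1755 and 1611 against 8251 and 7913 CPM, the siFXR1-LNA values from only 4 and 40 cells.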

How the results depend on the processing

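For 98 results on single genes, 1269 values were recomputed under alternatives, of which 1090 stayed on their side of the threshold, 130 lost it and 46 gained it. The sign turned in 53 values of 25 results, and in 50 of these neither value was past the threshold. The other 3 were Ccl4 in macrophage subcluster 0 alone (-0.18, adjusted p = 0.767), Ccl5 in dendritic cell subcluster 2 alone (-0.76, adjusted p = 0.777) and Ccl5 in epithelial cells without siCont replicate 1 (2.32, adjusted p = 0.0140), against -1.33 without siCont replicate 2. The cause was not tested. The number of members past the threshold, 4 in macrophages, was 0, 2 and 2 in subclusters 0, 4 and 6 alone. In granulocytes 3 became 1 with no filter on low counts, with cells carrying a marker UMI of another class removed, and with mixed subclusters kept. In dendritic cells 3 became 6 with no filter and 0 in subcluster 2 alone, while no member was tested in subcluster 3 alone. In mature dendritic cells 0 became 1 with DESeq2, 3 with no filter, 1 with the listed genes kept for clustering and 2 at resolution 0.3, where that class held 1396, 741, 260 and 359 cells and no dendritic cell class was left. In T cells 0 became 1 with DESeq2 and 2 with no filter, in B cells 1 with DESeq2 and 1 with no filter, and in epithelial cells 1 with no filter and 1 with mixed subclusters kept. Resolution 0.3 gave no value for dendritic and epithelial cells.

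With one library left out, members past the threshold ranged from 2 to 5 in macrophages, 0 to 3 in granulocytes, 0 to 4 in dendritic cells, 0 to 3 in mature dendritic cells, 0 to 1 in T cells, 0 to 1 in B cells, 0 to 1 in epithelial cells and 1 to 3 for the difference between dendritic cells and macrophages. The lone sample left in a group was assumed to vary like the other group.

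The labels share replicate numbers between groups without saying that they pair samples, and the deviations of same-numbered libraries correlated at 0.35 in macrophages, 0.12 in granulocytes, 0.21 in dendritic cells, 0.12 in mature dendritic cells, 0.31 in T cells, 0.30 in B cells and -0.08 in epithelial cells. With the replicate block, members past the threshold were 5 in macrophages, 3 in granulocytes, 6 in dendritic cells, 3 in mature dendritic cells, 0 in T cells, 1 in B cells and 0 in epithelial cells. The block added Cxcl9 in macrophages (adjusted p = 0.0392), Cxcl16, Cxcl10 and Cxcr3 in dendritic cells (0.0014, 0.0181 and 0.0121), Cxcl9, Ccl5 and Ccl3 in mature dendritic cells (0.0032, 0.0146 and 0.0182) and Ccl3 in B cells (0.0484).

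Genes past the threshold numbered 2708 in macrophages and 390 to 1697 with one library left out. In granulocytes 1038 became 610 with DESeq2 and 236 with no filter, and 0 to 1181 with one library left out. In dendritic cells 378 became 1516 with no filter, 1575 with the replicate block, 219 with high Scrublet scores removed, and 0 to 1061 with one library left out. In mature dendritic cells 199 became 642 with no filter, 573 with the replicate block and 341 to 692 with one library left out. In T cells 38 became 339 with DESeq2, 958 with no filter and 421 with the replicate block, in B cells 20 became 351, 909 and 768, and in epithelial cells 893 became 1611 with no filter and 28 with cells carrying a marker UMI of another class removed. With one library left out the range was 0 to 515 in T cells, 12 to 913 in B cells and 536 to 1209 in epithelial cells.

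The share of cells with a UMI depends on depth. The difference in percentage points between the groups at 500 UMIs per cell and unthinned was 2.33 and 9.21 for Ccl3 in macrophages, 7.43 and 22.6 for Ccl5 in macrophages, -4.62 and -13.9 for Cxcr3 in T cells, and 0.971 and -2.22 for Cxcr6 in T cells, where the sign turned.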
